A study of Mus musculus with 2 samples.

Results

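The receptors described here sit on the surface of the fat cell and start or brake lipolysis, the breakdown of stored triglyceride into fatty acids and glycerol. Of 9 listed receptors, 5 had a probe set that GEO's platform annotation pairs with their symbol alone, out of 19938 genes with such a probe set. They were Ptger3, Hcar1, Hcar2, Ffar4 and Npr3. The other 4, Adrb1, Adrb3, Adra2a and Adora1, were not analysed here. The list as drawn up covers adrenergic and metabolite receptors, but the values below hold none of its adrenergic members, and all 5 measured genes belong to the braking or clearing side.

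The Oma1_KO array held RNA of white adipose tissue from a mouse labelled Oma1-deficient, and the Oma1_WT array that of a mouse labelled control. Both were 24 weeks old and had been on a high-fat diet for 20 weeks, so no lean animal enters the comparison. Oma1 is a protease of the mitochondrial inner membrane. The labels give neither the fat depot, the strain, how Oma1 was disrupted, nor whether tissue of several mice was pooled. With 1 array per genotype there was no test of the genotype, no p-value is given and the spread between animals was not measured. Every difference below is the log2(intensity + 1) value in the Oma1_KO array minus that in the Oma1_WT array.

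Lipolysis is driven by cyclic AMP. Receptors coupled to the stimulatory G protein, the beta-adrenergic receptors above all, activate adenylyl cyclase, and the protein kinase A that follows phosphorylates hormone-sensitive lipase and the droplet coat protein perilipin. Receptors coupled to inhibitory G proteins lower cyclic AMP and so brake the pathway. Many of them respond to products of the fat cell or of fasting metabolism, such as prostaglandin E2, lactate, ketone bodies and fatty acids. Natriuretic peptides act through cyclic GMP instead, and a clearance receptor removes them.

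Both arrays had a median intensity of 83 over 35512 probe sets, and the upper quartile was 318 in the Oma1_KO array and 335 in the Oma1_WT array. The 11399 genes whose mean log2 value reached the median of all probe sets had a median difference of -0.06, and 7100 of them (62.3%) were lower in the Oma1_KO array. Past a size of 1.5-fold, 140 of them lay on the higher and 198 on the lower side, and this split was 169 and 147 after quantile normalisation. The SD between probe sets of 1 gene, over 545 genes with exactly 2 probe sets, was 0.17 on the log2 scale; it shows how well probes agree on a single pair of samples and says nothing of variation between mice. The Oma1 probe set read 155 in the Oma1_KO array and 187 in the Oma1_WT array, and with the disrupted part of the gene unknown this does not check the genotype. All 10 measured adipocyte markers, Adipoq, Lep and Plin1 among them, were above the intensity filter, so the defining genes of the labelled tissue were present.

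All 5 receptors were above the intensity filter, and all 5 read lower in the Oma1_KO array as deposited, as did 62.3% of all genes above the filter. Npr3 turned to the higher side after quantile normalisation or centring on the median of all genes. None was at least 1.5-fold lower or higher (0 of 5), against 2.97% of all genes above the filter, 1.74% on the lower and 1.23% on the higher side. The 5 differences ran from -0.38 to -0.03 with a median of -0.11, beside the median of -0.06 over all genes. Hcar1, Hcar2, Ffar4 and Npr3 lay in the bulk of the array, and Ptger3 lay in its lower part, with 6.56% of genes above the filter lower still.

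**Figure D1:**
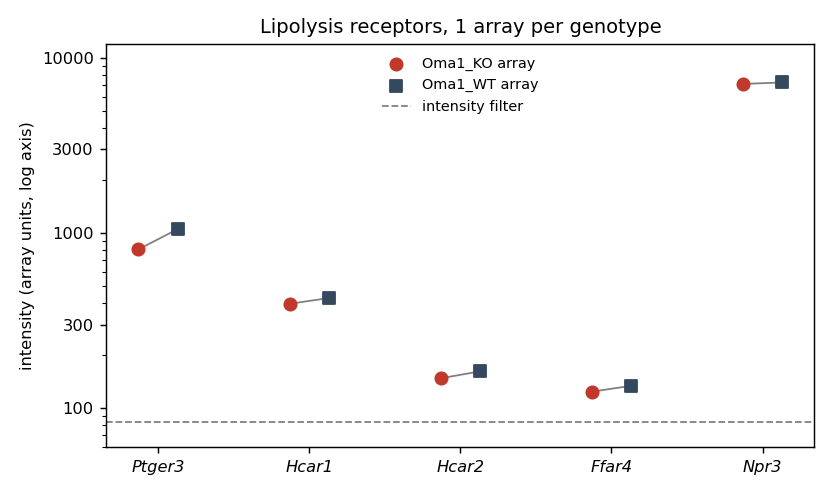
Intensity of each receptor's probe set (array units, log axis) in the Oma1_KO array (circles) and the Oma1_WT array (squares), 1 array each, with no error bars because there are no replicates; the dashed line is the intensity filter. Ptger3 shows the widest gap of the 5, at 807 against 1052, and the pair of points for Npr3 lies almost level at 7100 and 7233.

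Ptger3 encodes the EP3 receptor for prostaglandin E2, which couples to inhibitory G proteins and is abundant in mouse fat cells. It read 807 in the Oma1_KO array and 1052 in the Oma1_WT array, a difference of -0.38 and a ratio of 0.767. This was the one receptor of the 5 whose difference exceeded the SD between probe sets, at -2.25 times that SD. Of all genes above the filter, 748 (6.56%) had a lower difference. The genes above the filter were cut into 4 classes of equal size by mean intensity. Among the 2850 genes of the brightest class, which holds Ptger3 and in which differences were narrower, 119 (4.18%) had a lower difference, and the central 95% ran from -0.46 to 0.35. Ptger3 was thus inside that range, near its lower end. The gene gives rise to several splice forms that differ in the tail of the receptor, and its 1 probe set does not tell them apart.

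Hcar1 and Hcar2 are the receptors for lactate and for the ketone body 3-hydroxybutyrate, and Hcar2 is also the receptor through which niacin suppresses lipolysis. In RefSeq's annotation of the mouse assembly GRCm38.p6 they are neighbours, with 0 annotated genes lying wholly between them. Hcar1 read 394 in the Oma1_KO array and 425 in the Oma1_WT array, a difference of -0.11. Hcar2 read 148 in the Oma1_KO array and 162 in the Oma1_WT array, a difference of -0.13. Both differences were smaller than the SD between probe sets. Of all genes above the filter, 58.8% differed by at least as much as Hcar1 in either direction, and 52.5% by at least as much as Hcar2. The 2 genes are related in sequence, and whether either probe set takes signal from the other gene was not tested.

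Ffar4, also known as Gpr120, is a receptor for long-chain fatty acids that is found on fat cells and on macrophages. It read 124 in the Oma1_KO array and 134 in the Oma1_WT array, a difference of -0.11. Of all genes above the filter, 58.1% differed by at least this much. Ffar4 and Hcar2 lie in the dimmest class above the filter, where the central 95% of differences ran from -0.57 to 0.52 and 4.21% of genes were past 1.5-fold in either direction. Because the deposited intensities are whole numbers, rounding alone could move the Ffar4 difference by up to 0.011 and that of Hcar2 by up to 0.0093, far less than the differences themselves. No detection call was used, so how far such dim signals stand above background is not known.

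Npr3 encodes the natriuretic peptide clearance receptor, which binds these peptides and takes them up for degradation. It read 7100 in the Oma1_KO array and 7233 in the Oma1_WT array, a difference of -0.03 and a ratio of 0.982. Of all genes above the filter, 89.0% differed by at least as much in either direction. The direction of so small a difference depended on the scaling: it was 0.00020 after quantile normalisation and 0.03 after centring on the median of all genes. The signalling receptors for the same peptides, which make cyclic GMP, were the other genes of this family measured. Npr1 read 324 in the Oma1_KO array and 363 in the Oma1_WT array (-0.16), and Npr2 read 600 in the Oma1_KO array and 719 in the Oma1_WT array (-0.26). Neither reached 1.5-fold, and the difference of Npr2 alone of the 3 exceeded the SD between probe sets.

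**Figure D2:**
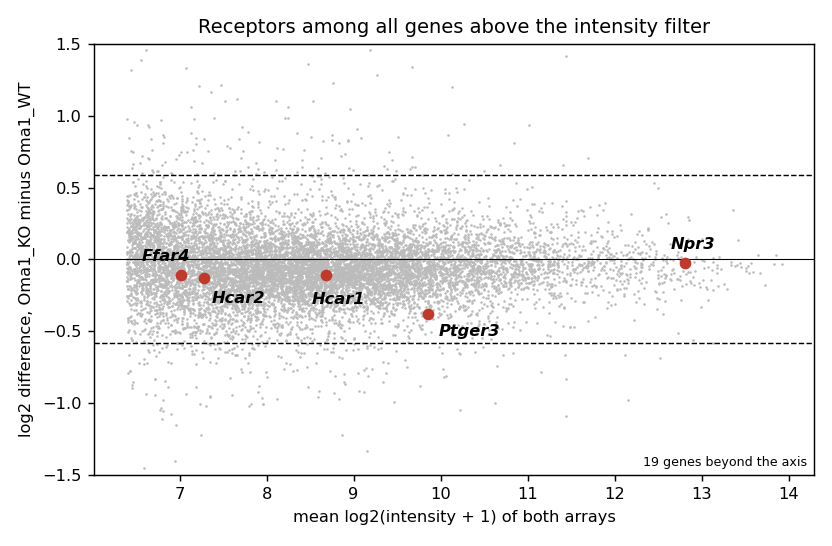
Difference between the Oma1_KO and Oma1_WT arrays (log2, vertical axis) against the mean log2(intensity + 1) of both arrays (horizontal axis) for the 11399 genes above the filter (grey) and the 5 receptors (red); dashed lines mark 1.5-fold, and 19 genes lie beyond the vertical axis. Ptger3 at -0.38 is in the lower part of the grey cloud, with 119 of the 2850 genes of its intensity class lower still, while Hcar1, Hcar2, Ffar4 and Npr3 are within its bulk.

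The receptors were then set beside markers of the cells that carry them. Of the 10 adipocyte markers, 9 were lower in the Oma1_KO array and 1 was higher under every scaling tried, with a median of -0.12, a range from -0.38 to 0.08 and a summed intensity of 56497 in the Oma1_KO array and 63235 in the Oma1_WT array. That median was smaller in size than the SD between probe sets and was -0.055 after median centring, and 62.3% of all genes above the filter were lower. Whether fewer fat cells, less RNA per fat cell or array scaling lies behind it was not tested. Bulk tissue on 1 array per genotype cannot tell these apart. Relative to the adipocyte marker median, Hcar1, Hcar2 and Ffar4 differed by 0.0065, -0.014 and 0.0045. Relative to the median of all genes above the filter they differed by -0.049, -0.069 and -0.051. Both sets of distances were below the SD between probe sets, so these 3 were not set apart from either. Npr3 was 0.089 above the adipocyte marker median. Ptger3 differed from the same marker median by -0.27, and 0 of the 10 markers had a lower difference than Ptger3 as deposited. However, Adipoq, which encodes adiponectin, read 5255 in the Oma1_KO array and 6832 in the Oma1_WT array. Its difference of -0.379 was nearly equal to the -0.382 of Ptger3, a gap far below the SD between probe sets. Ptger3 was thus at the low end of the adipocyte markers, level with Adipoq, which was picked out after its value was seen. The next lowest marker, Cidec, differed by -0.21. Unlike Hcar1, Hcar2 and Ffar4, Ptger3 lay further from the marker median than the SD between probe sets. Whether it differs from the markers between mice was not tested.

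Some of these receptors are also made by immune cells, and markers of immune cells differed in direction by cell type. For comparison, 62.3% of all genes above the filter were lower and 36.6% higher. With no filter the shares were 47.9% and 46.9%. Of 8 macrophage markers 7 were higher, with a median of 0.24 and a summed intensity of 25608 in the Oma1_KO array and 22182 in the Oma1_WT array. Of 6 mast cell markers 5 were higher, with a median of 0.63 and sums of 1672 in the Oma1_KO array and 972 in the Oma1_WT array. The filter was passed by 4 of them, 3 higher and 1 lower. The 6 neutrophil markers, of which 1 was above the filter, had a median of -0.03 and sums of 361 and 396 in the Oma1_KO and Oma1_WT arrays. B cell markers were lower in 4 of 4 cases, of which 2 were above the filter. Their median was -0.52, with sums of 512 in the Oma1_KO array and 768 in the Oma1_WT array. Of 5 T cell markers 3 were lower and 2 higher, with a median of -0.10 and sums of 497 in the Oma1_KO array and 539 in the Oma1_WT array. The 3 lower ones were above the filter and the 2 higher ones below it. Endothelial markers were lower in 6 of 6 cases, with sums of 5670 in the Oma1_KO array and 7411 in the Oma1_WT array. Mesothelial markers were lower in 4 of 5 cases, with sums of 1179 in the Oma1_KO array and 1760 in the Oma1_WT array. All 5 hepatocyte markers were higher, with sums of 7273 in the Oma1_KO array and 2880 in the Oma1_WT array. No marker on any of these lists was at 0 in either array. The part of these cell types in the receptor values was not tested.

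Of the other receptors known to act on lipolysis that were above the filter, 3 had lower differences than Ptger3. Of 27 listed, 20 were measured and 11 were above the filter. Of the 20, 12 were lower and 8 higher (10 and 10 after median centring), with a median of -0.06 beside 0 over all 19938 genes. Of the 11 above the filter, 8 were lower and 3 higher, with a median of -0.16 beside -0.06 over all genes above the filter. At least 1.5-fold lower were 2 of the 11, against 1.74% of all genes above the filter. Tshr, the thyrotropin receptor, which couples to the stimulatory G protein, read 1334 in the Oma1_KO array and 2121 in the Oma1_WT array (-0.67). Mc2r, the corticotropin receptor, through which that hormone starts lipolysis in mouse fat cells, read 386 in the Oma1_KO array and 598 in the Oma1_WT array (-0.63); it fell short of 1.5-fold after quantile normalisation (-0.56), loess (-0.56) and median centring (-0.57). Sucnr1, a receptor for succinate that brakes lipolysis, read 277 in the Oma1_KO array and 380 in the Oma1_WT array (-0.45).

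The ligands of the 5 receptors are not measured by an array, but the genes that make, carry or remove them are. They were taken from 1 list and grouped by receptor after their values were seen. Of 5 measured genes of prostaglandin E2, the ligand of Ptger3, 3 were higher and 2 lower, from -0.31 to 0.26. The lowest was Hpgd, which inactivates prostaglandins, at 1931 in the Oma1_KO array and 2395 in the Oma1_WT array. Of 4 genes of lactate, the ligand of Hcar1, 2 were higher and 2 lower. Ldhb, a subunit of lactate dehydrogenase, averaged 151.2 in the Oma1_KO array and 188.2 in the Oma1_WT array over its 2 probe sets (-0.31), which disagreed, since the brighter one alone gave -0.58. All 4 genes of natriuretic peptides, the ligands of Npr3, were higher, from 0.10 to 0.26, but 1 alone was above the filter. That was Mme, the peptidase neprilysin, at 1276 in the Oma1_KO array and 1063 in the Oma1_WT array (0.26). Across the whole list of 26 genes, 23 were measured, 16 were higher and 7 lower, and 0 reached 1.5-fold. The 14 above the filter were split evenly, 7 higher and 7 lower, with a median of -0.00072.

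Downstream of the receptors, differences of G proteins and adenylyl cyclases had a median of -0.05 and ran from -1.22 to 0.44. Of 17 measured, 12 were lower and 5 higher, which became 7 and 10 after median centring, and 0 of the 14 above the filter reached 1.5-fold. Gnai1, an inhibitory alpha subunit of the kind that Ptger3, Hcar1 and Hcar2 use, read 2713 in the Oma1_KO array and 3075 in the Oma1_WT array (-0.18). A pair of adenylyl cyclases went opposite ways, Adcy3 with 485 in the Oma1_KO array and 358 in the Oma1_WT array (0.44), and Adcy6 with 590 in the Oma1_KO array and 777 in the Oma1_WT array (-0.40). The lowest difference, that of Adcy8 (-1.22), at 26 in the Oma1_KO array and 62 in the Oma1_WT array, came from a gene below the filter.

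Phosphodiesterases break down cyclic nucleotides and so act on the same side as the braking receptors. They were lower in 10 of 12 cases as deposited and after quantile normalisation or loess, but in 5 of 12 after median centring. The median was -0.05 over all 12 and -0.16 over the 10 above the filter. Of these 10, 9 were lower, against 62.3% of all genes above the filter. Pde7a, which degrades cyclic AMP, read 605 in the Oma1_KO array and 983 in the Oma1_WT array (-0.70) and was the 1 member past 1.5-fold. Pde4b, also specific to cyclic AMP, read 106 in the Oma1_KO array and 159 in the Oma1_WT array (-0.58). Pde3b, the enzyme through which insulin restrains lipolysis, read 1453 in the Oma1_KO array and 1799 in the Oma1_WT array (-0.31).

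The kinases and anchors that answer to cyclic AMP and cyclic GMP were split evenly as deposited, with 4 of 8 lower, 4 higher (3 and 5 under each rescaling) and a median of 0.00081. Their larger differences were those of Prkg1, the cyclic GMP kinase downstream of Npr1 and Npr2, at 86 in the Oma1_KO array and 105 in the Oma1_WT array (-0.28), Prkar1b (0.23) and the anchor Akap12 (-0.22). Of 10 measured genes that switch receptors off, 8 were lower and 2 higher, which became 7 and 3 under each rescaling. Of the 9 above the filter 7 were lower, against 62.3% of all genes above it. Among these genes Rgs4, which shortens G protein signals, read 142 in the Oma1_KO array and 179 in the Oma1_WT array (-0.33), and the receptor kinase Grk6 differed by -0.29. Arrb2, an arrestin that binds activated receptors, read 702 in the Oma1_KO array and 571 in the Oma1_WT array (0.30). Neither list held a gene past 1.5-fold.

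At the end of the pathway, 7 of 9 lipases and droplet proteins were lower, against 62.3% of all genes above the filter, and 0 reached 1.5-fold. Their median of -0.13 was near that of the adipocyte markers, with which the list shares 3 genes. Pnpla2, the lipase that takes the first fatty acid off a triglyceride, differed by -0.29, Cidec, a droplet protein, by -0.21 and Fabp4, which carries fatty acids, by -0.17. Of 12 transcripts that cyclic AMP induces, 5 were lower, 5 higher and 2 equal (8 lower and 4 higher after loess, 5 and 7 after median centring). None of the 12 reached 1.5-fold. Among the 7 above the filter 4 were lower and 2 higher, against 62.3% of all genes above it lower. Their median was -0.20, beside -0.06 over all genes above the filter. Fosb read 109 in the Oma1_KO array and 81 in the Oma1_WT array (0.42), Fos read 193 in the Oma1_KO array and 144 in the Oma1_WT array (0.42), and Nr4a1 read 192 in the Oma1_KO array and 236 in the Oma1_WT array (-0.30). Fosb was under the filter intensity in the Oma1_WT array and passed through the Oma1_KO array. These are also genes of the general early response to many stimuli.

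**Figure D3:**
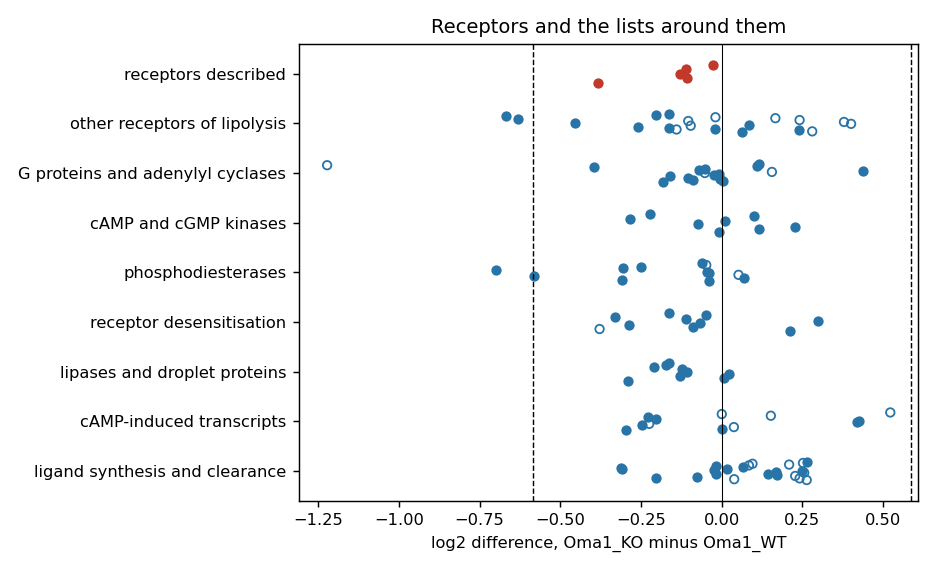
Log2 difference between the Oma1_KO and Oma1_WT arrays (horizontal axis) for the 5 receptors (top row, red) and every measured gene of the 8 lists around them (blue); filled points are above the intensity filter, open points below it, and dashed lines mark 1.5-fold. Of the filled points, 3 lie past 1.5-fold, all on the lower side: Tshr, Mc2r and Pde7a.

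The 5 receptor differences kept their order of size only in part when the arrays were scaled otherwise. Ptger3 had the lowest difference of the 5 under all 5 alternatives, between -0.38 and -0.32. The brightest probe set and median centring could not change the order, since each receptor has 1 probe set and centring shifts all differences alike. Hcar1 ranged from -0.11 to -0.04, Hcar2 from -0.13 to -0.07 and Ffar4 from -0.11 to -0.05, all below 0, and Npr3 from -0.03 to 0.03. No receptor reached 1.5-fold under any of them.

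**Figure D4:**
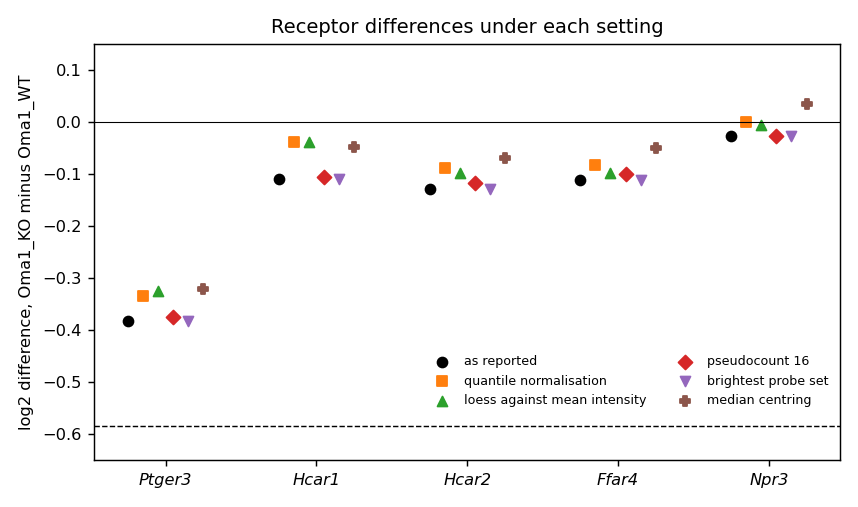
Log2 difference between the Oma1_KO and Oma1_WT arrays (vertical axis) for each receptor, as reported (black) and under 5 other choices of scaling, pseudocount or probe set; the dashed line marks 1.5-fold lower. Ptger3 lies between -0.38 and -0.32 throughout, the points of Npr3 straddle 0, and none crosses the dashed line.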

How the data were processed

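White adipose tissue of 1 Oma1_KO and 1 Oma1_WT sample was measured on Affymetrix Mouse Gene 1.0 ST arrays from Trizol-extracted, biotin-labelled RNA, per the labels' protocols. The authors deposited 1 linear intensity per probe set, rounded to whole numbers; the sources used here do not state the software, background correction, probe summary or scaling. Of 35512 probe sets, 21789 had a single symbol, and 21698 of these had a gene identifier in the RefSeq table of GRCm38.p6, those of all 5 receptors included. From the intensities, log2(intensity + 1) was computed, which makes differences of dim genes look smaller; values of several probe sets for the same gene were averaged. The filter required a mean no lower than the array-wide median (intensity 83). Sizes of 1.5-fold were counted, and no test was possible. The 5 receptors, Oma1, Npr1, Npr2 and the 3 genes of each of the 8 lists with the largest absolute difference above the filter were named; Adcy8 and Adipoq were added after their values were seen. The members and lists were chosen with earlier results of these data known. Quantile normalisation, loess, median centring, a pseudocount of 16, the brightest probe set and other filters were tried. The scripts were tested on simulated data. Python 3.11.15, numpy 2.4.6, pandas 2.3.3, statsmodels 0.14.6 and matplotlib 3.10.9 were used. The number of arrays limits the precision.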

Additional observations from a re-analysis of the deposited data

How the results depend on the processing

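No paired analysis was possible because each genotype had 1 array, and leaving out a replicate was not possible either. A difference or median was taken as moved if it shifted by at least the SD of 0.17 between probe sets, and a count if it changed by more than 1.5 times. None of the 5 receptor differences moved under the 5 alternatives, and the count of receptors past 1.5-fold was 0 under each, with 3 receptors above a filter at the upper quartile. For 2 of these alternatives that outcome was fixed in advance. Each receptor has 1 probe set, so the brightest one is the same, and median centring subtracts the same -0.06 from every difference. Only quantile normalisation, loess and the pseudocount could have moved them. Npr3 changed sign under quantile normalisation and median centring, at differences of 0.03 or less. The median of the transcripts that cyclic AMP induces was -0.20 above the filter and 0 with no filter. The count of genes at least 1.5-fold higher was 219 with no filter and 52 once the filter was raised to the upper quartile, and that of genes at least 1.5-fold lower was 81 with the raised filter, since these filters change how many genes are counted. Of the genes named by rule beside the receptors, Ldhb alone moved (-0.58 with its brightest probe set) and 0 changed sign. Mc2r alone of them changed its side of 1.5-fold. Adcy8 and Adipoq, added after their values were seen, were not followed gene by gene under the alternatives. The median of G proteins and cyclases changed sign under 2 of 7 alternatives and that of ligand genes under 6, both near 0.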
